A study of Mus musculus with 21 samples.

Results

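Mouse embryonic stem cells carrying NesE-Olig2, a transgene in which a nestin enhancer drives the basic helix-loop-helix factor Olig2 in neural progenitors, were compared with wild-type stem cells after 8 days of differentiation, and RNA of purified post-mitotic neurons was hybridised to Affymetrix whole-genome mouse arrays. The Olig2 line neurons, given as somatic motoneurons made with SHH and retinoic acid, have 3 arrays, and the wild-type neurons have 3 arrays. For the wild type the labels disagree: the titles name SHH together with retinoic acid (RA), whereas the source names give RA alone and the descriptions place the cells in the dorsal hindbrain. If the wild-type cultures received no SHH, the line and SHH cannot be told apart. The 6 arrays are part of 21 in 7 groups, and another engineered group, an Nkx2.2 line kept under SHH and RA for 10 days and labelled serotonergic, was used as a further reference in which line and day cannot be told apart. How many clones stand behind each line and how the neurons were purified are not given in the sources used here. All 18193 named genes were taken, each through the 1 probe set that varied most over the 21 arrays, and the 3 Olig2 line arrays were set against the 3 wild-type arrays.

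In the embryonic neural tube, graded SHH from the floor plate and notochord divides ventral progenitors into domains, and Olig2 marks the domain that gives rise to somatic motor neurons. As these progenitors leave the cell cycle, Mnx1, Isl1, Isl2 and Lhx3 take over, cholinergic genes are switched on, and factors of the neighbouring interneuron classes are kept off. Retinoic acid from the paraxial mesoderm promotes both steps and takes part in setting Hox expression, by which motor neurons of different levels are told apart.

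Values are log2 signals from which each probe set's own median over 27 arrays had been subtracted, so a value near 0 means close to that median and not absence, and only differences between arrays can be read. A gene was called when limma's adjusted p over all 18193 genes (Benjamini-Hochberg) was under 0.05 and the log2 difference was 1 or more in either direction. Gene against gene correlations between replicate arrays were 0.768 to 0.872 in the Olig2 line and 0.564 to 0.746 in the wild type. Among genes whose other 2 wild-type arrays were less than 1 log2 unit apart, replicate 3 stood more than 3 units above their mean for 69 genes. Replicate 1 stood that far below the mean of its other 2 arrays for 35 genes. By the hybridisation control bioC the 21 arrays fell into 2 sets, 9 arrays from -2.75 to -1.27 and 12 arrays from -0.15 to 0.65, and what the sets stand for is not stated in the labels. Olig2 line replicates 1 and 2 were in the first set, and Olig2 line replicate 3 and all 3 wild-type arrays in the second. The sets rest on bioC alone, cut at its widest gap. The mean of the other hybridisation controls was 0.015 and -0.12 on Olig2 line replicates 1 and 2. It was -0.21, -0.086 and 0.25 on the wild-type arrays, so these controls did not separate them. Values said below to be within the second set therefore rest on 1 Olig2 line array, assumed to vary like the other groups, against 3 wild-type arrays. The labels call the arrays biological replicates without naming separate cultures, and the p-values measure only the spread between these samples.

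The neurons of the Olig2 line differed broadly from wild-type neurons. Of 18193 genes, 1884 (10.4%) were called, 1001 higher (5.5%) and 883 lower (4.85%). These shares are the background for the list counts below. The median difference was 1.56 among the genes called higher and -1.61 among those called lower, and it was 0.04 over all genes. Larger differences were more often falls, with 114 genes lower by 3 or more and 69 higher by as much. The 3 arrays of the Olig2 line did not overlap the 3 wild-type arrays for 11233 genes (61.7%), a share raised by the 5894 genes whose 6 arrays span less than 0.2, of which 5054 do not overlap. Of the genes called, 539 higher and 515 lower kept their call whichever 1 of the 6 arrays was left out. Of the called genes with more than 1 probe set, 235 of 737 called higher and 185 of 539 called lower had a second probe set called the same way, and 2 in each direction had one called the other way. Within the second set 227 genes were called higher and 262 lower.

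**Figure D1:**
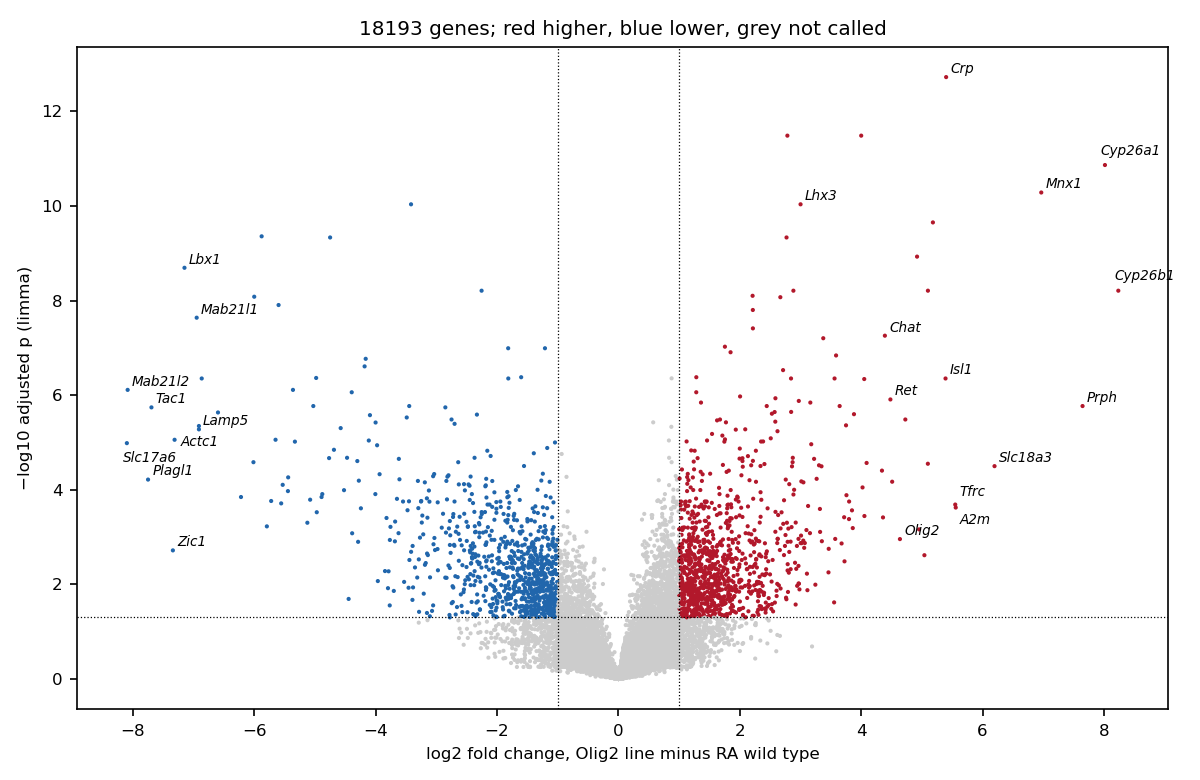
The log2 difference (Olig2 line minus RA wild type, x axis) is plotted against -log10 of limma's adjusted p (y axis) for 18193 genes, with dotted lines at the call thresholds. Red points are the 1001 genes called higher, blue points the 883 called lower, and labels mark genes with large differences, with Cyp26b1, Cyp26a1, Prph and Mnx1 farthest right and Slc17a6, Mab21l2, Plagl1 and Tac1 farthest left.

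The driven gene was read first. Olig2 read 4.27, 5.24 and 3.8 in the Olig2 line, against -0.24, -0.19 and -0.18 in wild-type neurons. All 3 Olig2 line arrays were above all 3 wild-type arrays. The difference was 4.64 ± 0.80 (SE; limma, adjusted p = 0.0011), and within the second set it was 4.0 (adjusted p = 0.000205). Part of the day 10 arrays of an Lmx1a line were also high in Olig2, their mean being 2.13 ± 2.40 (SD, n = 3), so the gene did not set the Olig2 line apart from every other array. Whether the probe set reads the transgene as well as the endogenous gene is not stated in the sources used here.

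The 4 genes that mark somatic motor neurons, Mnx1, Isl1, Chat and Slc18a3, were all higher in the Olig2 line, as its label says. Mnx1, a homeobox factor that holds motor neuron identity against the V2a interneuron fate, read 8.16, 7.76 and 8.03 in the Olig2 line, against 0.48, 0.66 and 1.92 in the wild type. Its lowest Olig2 line array was above every other array of the series, as was so for 526 genes (2.89%), and the difference was 6.97 ± 0.24 (SE; limma, adjusted p = 5.17e-11), or 5.74 with quantile-normalized arrays. Isl1, a LIM homeobox factor, read 1.09, 0.75 and -0.025 in the Olig2 line, against -4.90, -4.44 and -5.01 in the wild type. The groups were far apart, and the Olig2 line differed by 5.39 ± 0.41 from the RA wild type (limma, adjusted p = 4.43e-07). Isl1 did not set the Olig2 line apart from every other group. The wild type kept under FGF8 averaged 0.14 ± 0.41 (SD, n = 3), near the Olig2 line mean of 0.61 ± 0.57. The Nkx2.2 line under FGF8 (0.57) and the Lmx1a line at day 10 (0.07) were near it too. The RA wild type was low, as were the Nkx2.2 line under RA (-6.63 ± 0.54) and the Lmx1a line at day 14 (-3.17 ± 0.39). In bulk neurons, more cells with a transcript and more transcript per cell cannot be told apart.

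Of 13 motor neuron transcription factors tested, 6 were called higher and 0 lower. The list's median difference was 1.5, beside 0.04 over all genes. The 6 include the driven gene Olig2 and the markers Mnx1 and Isl1 given above, so the count is not separate from those results. Lhx3, the LIM homeobox partner of Isl1 in motor neurons, read 7.96, 7.84 and 8.12 in the Olig2 line, against 5.23, 5.07 and 4.61 in the wild type. The wild-type arrays were themselves far above those of the Nkx2.2 line, whose mean was -0.041 ± 0.0094 (SD, n = 3), so the rise of 3.00 ± 0.11 (adjusted p = 9.19e-11) came on top of a wild-type value that was already high for the series. Neurog2, a proneural factor of motor neuron progenitors, read 2.42, 2.13 and 2.04 in the Olig2 line, against -0.26, -0.54 and -1.04 in the wild type, with no overlap and a difference of 2.81 ± 0.62 (adjusted p = 0.00566). Olig1, the close relative of Olig2, read 2.95, 2.64 and 1.31 in the Olig2 line, against values between -0.03 and -0.01 in the wild type. Its difference of 2.33 ± 0.45 (adjusted p = 0.00231) was smallest in replicate 3, the array of the second set. Within that set 4 of the 13 factors were called higher, and neither Neurog2 (2.65, adjusted p = 0.236) nor Olig1 (1.34, adjusted p = 0.528) was among them. The other 7 factors were not called, among them Isl2 at 1.11 ± 0.43 (adjusted p = 0.0923), Lhx4 at 0.68 ± 0.69 (adjusted p = 0.559), and the ventral progenitor factors Nkx6-1 at -0.44 ± 0.42 and Nkx6-2 at -0.89 ± 0.48.

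**Figure D2:**
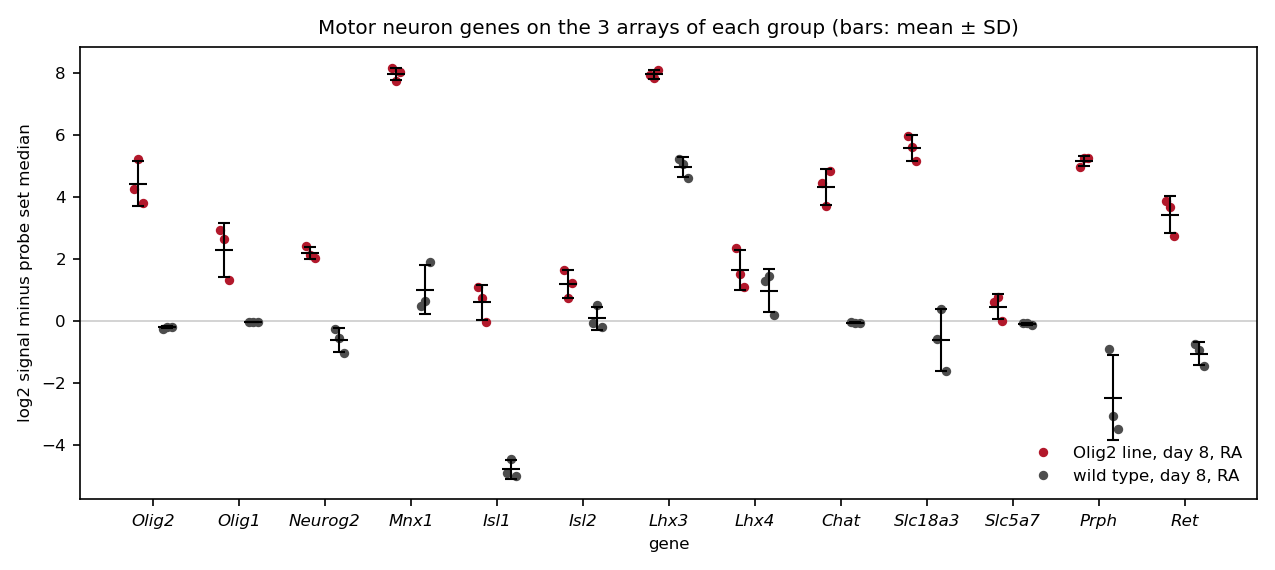
Centred log2 signals (y axis) of 13 motor neuron genes (x axis) are shown for the 3 arrays of the Olig2 line (red, left of each pair) and the 3 arrays of the RA wild type (grey, right), with bars for the mean and SD. Mnx1, Chat, Slc18a3, Prph and Ret are widely apart, Lhx3 is high in both groups, and Isl2, Lhx4 and Slc5a7 lie close together.

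Genes of acetylcholine transmission followed in part. Chat, which makes acetylcholine, read 4.46, 3.71 and 4.84 in the Olig2 line, against -0.044, -0.047 and -0.073 in the wild type. Slc18a3, the transporter that loads acetylcholine into vesicles, read 5.99, 5.61 and 5.16 in the Olig2 line, against -0.59, 0.38 and -1.61 in the wild type. For both genes the Olig2 line arrays were above all 18 others, and the differences were 4.39 ± 0.28 for Chat (adjusted p = 5.51e-08) and 6.2 ± 0.70 for Slc18a3 (adjusted p = 3.16e-05). Within the second set Chat kept its call, at 4.89 (adjusted p = 0.00266), and Slc18a3, at 5.77, had an adjusted p of 0.0678. Slc44a1, a choline transporter, was the third member called, at 1.52 ± 0.29. The remaining 3 of 6 were not called: Ache, which breaks acetylcholine down, differed by 1.30 ± 0.51 (adjusted p = 0.0981), Slc5a7, which takes choline back into the terminal, by 0.55 ± 0.21 (adjusted p = 0.0912), and Bche by -0.19 ± 0.43.

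Chat and Slc18a3 form 1 locus, in which Slc18a3 lies inside the first intron of Chat, and their RefSeq starts in GRCm38.p6 are 1059 bases apart on the minus strand of chromosome 14. The start regions are shown because these neighbours rose together. The Chat window is chr14:32465860-32466159 and the Slc18a3 window chr14:32464801-32465100, each holding 250 bases before and 50 bases after the start, with the 50 transcribed bases in capitals.
Chat: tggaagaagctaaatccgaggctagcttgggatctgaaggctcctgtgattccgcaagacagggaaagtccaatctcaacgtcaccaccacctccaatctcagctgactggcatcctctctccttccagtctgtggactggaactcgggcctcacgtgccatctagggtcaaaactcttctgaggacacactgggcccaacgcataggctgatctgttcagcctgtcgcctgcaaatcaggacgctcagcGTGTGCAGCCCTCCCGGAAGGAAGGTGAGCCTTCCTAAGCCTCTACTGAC
Slc18a3: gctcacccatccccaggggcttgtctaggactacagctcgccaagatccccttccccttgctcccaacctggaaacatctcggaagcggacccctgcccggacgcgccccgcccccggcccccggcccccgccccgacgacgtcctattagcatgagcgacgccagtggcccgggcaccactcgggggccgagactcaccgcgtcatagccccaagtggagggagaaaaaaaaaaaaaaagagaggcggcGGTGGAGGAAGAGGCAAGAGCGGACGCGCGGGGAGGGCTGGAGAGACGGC

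Further genes known from motor neurons gave the same picture for some members only. Of 14 such genes, 6 were called higher (42.9%) and 1 lower (7.14%). Prph, the intermediate filament protein peripherin of neurons with peripheral axons, read 4.98, 5.25 and 5.26 in the Olig2 line, against -0.91, -3.06 and -3.47 in the wild type, a difference of 7.65 ± 0.65 (adjusted p = 1.69e-06). This holds for the probe set that varied most, since the 4 probe sets of Prph ranged from 0.03 to 7.65. Ret, the signalling receptor for GDNF, on which motor axons depend, read 3.87, 3.67 and 2.76 in the Olig2 line, against -0.73, -0.95 and -1.46 in the wild type, and its difference was 4.48 ± 0.37 (adjusted p = 1.23e-06), with a second probe set at 4.55. Nrg1, a growth factor that motor axons present to muscle and Schwann cells, rose by 3.88 ± 0.34, Slit2 by 3.35 ± 0.38 and Slit3 by 2.47 ± 0.50, the last 2 being secreted guidance cues, and Stk32a by 2.27 ± 0.45. Fign, a microtubule-severing enzyme, was the member that fell, to -0.63, -1.49 and -0.56 in the Olig2 line, against 1.79, 1.54 and 1.83 in the wild type. Gfra1, the coreceptor for GDNF, was not called: it read 1.08, 1.16 and 0.23 in the Olig2 line, against -1.10, -1.03 and 2.29 in the wild type, where replicate 3 was the highest of all 6 arrays.

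Receptors for trophic factors were split. Of 16 tested, 5 were called higher (31.2%) and 3 lower (18.8%). Beside Ret these included Il6st, the signalling subunit shared by the receptors for LIF and CNTF, at 2.93 ± 0.63 (adjusted p = 0.00469), and Lifr, the LIF receptor, at 2.35 ± 0.24 (adjusted p = 9.54e-06). Lifr read 1.04, 1.02 and 1.85 in the Olig2 line, against -1.41, -0.88 and -0.85 in the wild type, without overlap. Gfra4, a coreceptor of Ret, fell by 1.45 ± 0.29. The neurotrophin receptor Ntrk3, at -3.10 ± 1.01, lost its call whichever 1 of the 6 arrays was left out (adjusted p = 0.0529 to 0.172), and Ntrk2, at -2.11 ± 0.51, without Olig2 line replicate 2 (adjusted p = 0.0554). Ngfr, at 1.6 ± 0.43, lost it without Olig2 line replicate 1 or wild-type replicate 1 or 2 (adjusted p = 0.059 to 0.0754), and the neuregulin receptor Erbb3, at 1.48 ± 0.41, without Olig2 line replicate 1 or 2 or wild-type replicate 2 or 3 (adjusted p = 0.0724 to 0.106).

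Markers of motor columns and pools, the subgroups that serve different muscles, gave 1 gene called higher and 3 lower of 16. Etv4, an ETS factor of limb motor pools and a target of FGF signalling, read 3.15, 2.44 and 2.96 in the Olig2 line, against -0.023, 0.23 and -0.25 in the wild type, a difference of 2.86 ± 0.33 (adjusted p = 3.19e-05). Esrrb, an orphan nuclear receptor, read 0.22, -0.067 and 1.12 in the Olig2 line, against 4.75, 5.57 and 4.12 in the wild type, and fell by 4.39 ± 0.35. Lhx1, which marks lateral motor neurons and several interneuron classes, fell by 2.97 ± 0.64. Foxp1, the factor of limb-level columns, was not called at 1.67 ± 0.56 (adjusted p = 0.0525), and the 3 Olig2 line arrays spread over 0.092, 0 and 1.73, against 0.015, -1.05 and -2.15 in the wild type. Aldh1a2, the retinoic acid synthesising enzyme of limb-level motor neurons, read 5.07, 4.75 and 3.59 in the Olig2 line, against 1.49, 4.61 and 2.42 in the wild type. Its groups overlapped through wild-type replicate 2 (difference 1.63 ± 0.63, adjusted p = 0.092), and without that array it was called, at 2.52 (adjusted p = 0.0047). Foxp1 was called without wild-type replicate 1, at 2.21 (adjusted p = 0.0199). Mecom, at -1.42 ± 0.36, lost its call without Olig2 line replicate 1, Olig2 line replicate 2 or wild-type replicate 1 (adjusted p = 0.0531 to 0.083).

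Among 9 genes of visceral and branchial motor neurons, 1 was called higher (11.1%) and 2 lower (22.2%). Hand2, a factor of autonomic neurons, read 3.52, 2.94 and 3.91 in the Olig2 line, against -0.035, 1.85 and 0.28 in the wild type, a difference of 2.76 ± 0.34 (adjusted p = 6.08e-05), although its 3 probe sets ranged from 0.03 to 2.76. Gata3 is given with the interneuron factors below. Phox2a, a determinant of visceral motor neurons, was at -1.36 ± 0.43 (adjusted p = 0.0387), a call that was lost when 1 of 5 arrays, each but wild-type replicate 3, was left out, at adjusted p-values of 0.0778 to 0.144.

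The Hox genes, which record position along the body axis, had few calls between Olig2 line and RA wild-type neurons and many between the Olig2 line and the Nkx2.2 line under RA. Against the wild type, the counts called higher and lower were 1 and 1 of 7 for paralog groups 1 to 3, 0 and 1 of 6 for groups 4 and 5, 2 and 0 of 10 for groups 6 to 9, and 0 and 0 of 10 for groups 10 to 13, where 1 gene had an unadjusted p under 0.05 in each direction, beside 5.5% higher and 4.85% lower of all genes. Of the 6 genes of groups 4 and 5, all were without overlap, beside 61.7% of all genes, and 5 were lower, with a median difference of -0.67. Their mean was 6.51, 6.58 and 6.66 on the Olig2 line arrays and 7.58, 6.80 and 7.09 on the wild-type arrays. Hoxd9 read 2.90, 2.93 and 4.0 in the Olig2 line, against -0.047, 0.92 and 0.045 in the wild type, a difference of 2.97 ± 0.25 (adjusted p = 1.32e-06). Hoxa7 read 5.46, 5.18 and 5.34 in the Olig2 line, against 1.11, 4.43 and 2.82 in the wild type. All Olig2 line arrays of both genes were above all 18 others, though the wild-type arrays of Hoxa7 were widely spread (difference 2.54 ± 0.51, adjusted p = 0.00304, and 2.56 within the second set, adjusted p = 0.296). Hoxd3, at 4.97, 5.22 and 5.45 in the Olig2 line, against 7.41, 6.09 and 6.46 in the wild type, fell by 1.44 ± 0.29. The 2 other calls were not stable: Hoxd1 at 1.02 ± 0.20 dropped under a difference of 1 without Olig2 line replicate 1 or 2 (0.74 and 0.94), and Hoxb4 at -1.03 ± 0.30 lost its call without Olig2 line replicate 1 or 2 or wild-type replicate 1 or 2 (adjusted p = 0.0602 to 0.149). Hoxc8 averaged 6.88 ± 0.81 in the Olig2 line and 5.27 ± 1.80 in the wild type (SD, n = 3 each), a difference that did not pass (adjusted p = 0.191). Hoxa10 was not called either, at -1.61 ± 0.60 (adjusted p = 0.0843), but it was without wild-type replicate 1, at -2.72 (adjusted p = 1.34e-06).

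Against the Nkx2.2 line under RA, a comparison in which 2388 genes were called (13.1%; 1262 higher, 6.94%, and 1126 lower, 6.19%) and which uses the same 3 Olig2 line arrays, 4 of 7, 4 of 6, 8 of 10 and 2 of 10 Hox genes of those groups were called higher. Hoxc8 differed by 7.02 ± 0.77 (SE; limma, adjusted p = 1.08e-05) and Hoxb9 by 7.86 ± 0.56 (adjusted p = 1.46e-07). The wild-type difference of Hoxb9 was 0.49 ± 0.56 (adjusted p = 0.579).

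**Figure D3:**
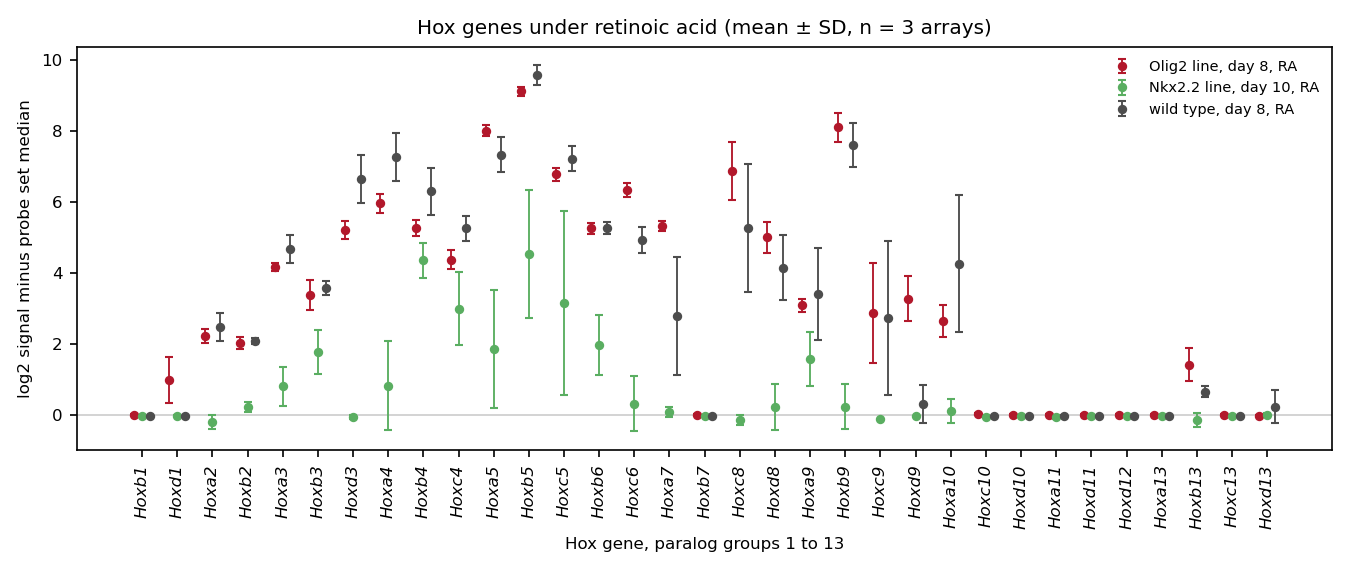
Mean centred log2 signals and SD (y axis, n = 3 arrays) of 33 Hox genes in the order of their paralog groups (x axis) are shown for the Olig2 line at day 8 (red), the Nkx2.2 line at day 10 (green) and the wild type at day 8 (grey), all under RA. Hoxd9 and Hoxa7 are highest in red, and green points are below red ones for most genes of groups 4 to 9.

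Among the largest rises were those of Cyp26b1 and Cyp26a1, the cytochrome P450 enzymes that oxidise and so clear retinoic acid. Cyp26a1 read 8.20, 8.58 and 7.18 in the Olig2 line, against -0.03 on each of the wild-type arrays. Cyp26b1 read 8.33, 8.30 and 8.48 in the Olig2 line, against at most 0.41 in the wild type. Both were above all 18 other arrays in the Olig2 line, and the differences were 8.02 ± 0.25 for Cyp26a1 (adjusted p = 1.36e-11) and 8.23 ± 0.43 for Cyp26b1 (adjusted p = 6.17e-09), or 6.88 and 7.11 with quantile-normalized arrays, where Prph, at 7.17, was above both. With only the 6 compared arrays in the limma fit the adjusted p-values were 0.00189 for Cyp26a1 and 0.00049 for Cyp26b1. Dhrs3, which turns retinaldehyde back to retinol, read 4.99, 4.89 and 5.04 in the Olig2 line, against -0.22, 0.066 and 0.32 in the wild type, a difference of 4.92 ± 0.23 (adjusted p = 1.17e-09). These 3 enzymes, all on the side that lowers retinoic acid, kept their calls within the second set, at 7.21, 8.35 and 4.99.

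Of 22 genes of retinoic acid metabolism and response, 7 were called higher and 0 lower, with a median difference of 0.15. Stra6, the membrane receptor for retinol-binding protein, read 4.23, 3.93 and 3.04 in the Olig2 line, against 0.15, 2.53 and 1.02 in the wild type, a difference of 2.50 ± 0.56 (adjusted p = 0.00614), and Rdh11, a retinal reductase, rose by 1.29 ± 0.28. Rarb, the receptor gene that retinoic acid induces, read 5.84, 5.62 and 5.82 in the Olig2 line, against 3.72, 2.73 and 3.56 in the wild type, without overlap. Its difference of 2.43 ± 0.74 (adjusted p = 0.0341) lost its call when any 1 of the 6 arrays was left out (adjusted p = 0.0554 to 0.127), and that of Crabp2, a carrier protein of retinoic acid at 2.92 ± 0.85 (adjusted p = 0.0267), when Olig2 line replicate 1 or 2 or wild-type replicate 2 or 3 was (adjusted p = 0.0566 to 0.11). The other receptors were not called, with Rara at -0.41 ± 0.43, Rarg at 0.27 ± 0.18 and Rxra at 0.095 ± 0.38. The number called higher was 5 or 6 when 1 array was left out and 4 within the second set.

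The start regions of the 2 Cyp26 genes are shown because these genes rose by about 8 log2 units and because retinoic acid receptors are known to bind direct repeats of the kind searched for here. The windows, from RefSeq in GRCm38.p6, are chr19:37697558-37697857 on the plus strand for Cyp26a1 and chr6:84593761-84594060 on the minus strand for Cyp26b1, each 250 bases before to 50 bases after the start. Capitals mark a match to DR5 (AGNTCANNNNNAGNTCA, searched on both strands), found on the opposite strand 32 bases before the Cyp26a1 start, and the Cyp26b1 window has none.
Cyp26a1: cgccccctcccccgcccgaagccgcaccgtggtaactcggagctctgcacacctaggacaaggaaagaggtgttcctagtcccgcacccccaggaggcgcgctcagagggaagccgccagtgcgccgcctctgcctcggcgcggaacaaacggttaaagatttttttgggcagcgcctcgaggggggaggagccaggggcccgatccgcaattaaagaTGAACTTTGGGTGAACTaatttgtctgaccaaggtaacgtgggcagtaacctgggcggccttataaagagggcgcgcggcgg
Cyp26b1: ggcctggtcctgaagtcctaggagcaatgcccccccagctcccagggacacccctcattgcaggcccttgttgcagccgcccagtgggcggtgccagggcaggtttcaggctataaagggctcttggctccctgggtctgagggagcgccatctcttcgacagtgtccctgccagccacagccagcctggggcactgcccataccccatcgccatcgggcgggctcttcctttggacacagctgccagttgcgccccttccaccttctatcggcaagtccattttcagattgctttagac
DR5 was present in 67 of 32851 promoter windows of this length (0.204%). Of the 18 retinoic acid genes with a window, 1 held it. Among all genes called higher 3 of 789 with a window held it, and among those called lower 0 of 700. The tighter spacings DR2 (AGNTCANNAGNTCA, in 0.107% of windows) and DR1 (AGNTCANAGNTCA, in 0.219%) were in none of the 18.

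Other signalling pathways had fewer calls. Of 13 hedgehog pathway genes, 0 were called in either direction (limma; at an unadjusted p under 0.05, 1 was higher and 2 lower). Ptch1, the SHH receptor and target, read 1.05, 2.19 and 0 in the Olig2 line, against -0.70, -0.30 and 0.77 in the wild type, with overlap. Gli1, the other common target, read 0.23, 0.054 and 0.0075 in the Olig2 line, against -0.033, 3.75 and 0.83 in the wild type, where replicate 2 stood out (difference -1.42 ± 0.61, adjusted p = 0.14). Of 21 FGF pathway genes, 3 were higher (14.3%) and 1 lower (4.76%), and 17 differences were above 0, beside 12098 of all 18193. The list's mean was 0.835, 0.789 and 0.583 on the Olig2 line arrays and -0.375, 0.048 and 0.198 on the wild-type arrays, without overlap. Spry4, a feedback inhibitor of FGF receptors, read 3.83, 3.96 and 3.74 in the Olig2 line, against -0.49, -0.087 and -0.16 in the wild type, a difference of 4.09 ± 0.46 (adjusted p = 2.71e-05), and with Etv4 and Fgf9 (1.39 ± 0.27) it made up the 3, while the fall of Fgfr1, -1.22 ± 0.39, lost its call whichever 1 array was left out (adjusted p = 0.0595 to 0.134). In the Notch list 2 of 18 were higher (11.1%) and 0 lower: Hey2, a transcriptional target of Notch, at 2.00 ± 0.16 (adjusted p = 1.06e-06), and Mfng, a glycosyltransferase that modifies Notch, at 2.74 ± 0.50. In the BMP list 1 of 23 was higher and 3 were lower, with Bmp7 at 3.73 ± 0.75, the activin inhibitor Fst at -3.04 ± 0.55 and the activin subunit Inhba at -2.01 ± 0.28 keeping their calls whichever 1 array was left out.

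Many interneuron factors were lower in the Olig2 line than in the RA wild type. Of 18 factors of ventral interneurons, 0 were called higher and 11 lower, with a median difference of -1.77, and of 17 factors of dorsal and intermediate interneurons, 0 were higher and 9 lower, with a median of -2.76. Against the Nkx2.2 line under RA, 3 ventral factors were called higher and 4 lower, with a median difference of 0.03. Of the dorsal and intermediate factors, 1 was higher and 1 lower against that line, with a median of 0.03. Over all genes 6.94% were higher and 6.19% lower in that comparison. Among ventral factors the V2b set was low throughout. Gata3 read -4.67, -4.55 and -4.01 in the Olig2 line, against 2.97, 2.68 and 1.84 in the wild type. Gata2 read -2.05, -2.04 and -2.17 in the Olig2 line, against 1.35, 1.65 and 0.38 in the wild type. Tal1, their partner, read -0.99, -0.41 and -0.33 in the Olig2 line, against 4.34, 3.69 and 3.11 in the wild type. None of these groups overlapped, and the differences were -6.91 ± 0.65, -3.21 ± 0.54 and -4.29 ± 0.76 (adjusted p = 4.48e-06, 0.000874 and 0.00126). Gata3 on the Olig2 line arrays was also below all 18 others, as were 234 genes (1.29%).

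Evx1, the V0 factor, read between -0.02 and 0.01 in the Olig2 line, against 4.37, 3.39 and 2.54 in the wild type, a difference of -3.44 ± 0.29 (adjusted p = 1.69e-06). En1, the V1 factor, read -1.76, -1.77 and -1.59 in the Olig2 line, against values of about 0 on all 3 wild-type arrays, and fell by 1.71 ± 0.41 (adjusted p = 0.00967). Shox2, found in excitatory ventral interneurons, fell by 5.44 ± 0.65, Lhx5 by 5.33 ± 0.54, Dmrt3, a dI6 factor, by 3.79 ± 0.83, and Foxd3, a V1 factor, by 1.83 ± 0.24. Dmrt3 has 4 probe sets, and they ranged from -3.79 to 0.05. Wt1, at -1.40 ± 0.43, was the 1 ventral call lost when an array was left out (each but wild-type replicate 1, adjusted p = 0.0577 to 0.13). Not called were Sim1 at 0.70 ± 0.72, the V3 factor, and Sox14 at -0.12 ± 0.53 and Vsx1 at 0.041 ± 0.043, which belong to V2. Within the second set 4 of 18 were called lower.

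Dorsal factors of several classes were lower. Lbx1, which defines the dI4 to dI6 interneurons, read between -0.01 and 0.00 in the Olig2 line, against 7.45, 6.92 and 7.05 in the wild type, a difference of -7.15 ± 0.34 (adjusted p = 2.02e-09). Tfap2a, the AP-2 alpha factor of inhibitory dorsal neurons, read between -0.03 and 0.00 in the Olig2 line, against 6.16, 5.69 and 5.75 in the wild type, a difference of -5.88 ± 0.25 (adjusted p = 4.37e-10). Tfap2b fell by 5.65 ± 0.56 and Pax8, also of inhibitory neurons, by 6.0 ± 0.32. Of the factors of excitatory dI5 neurons, Tlx3 read between -0.03 and 0.00 in the Olig2 line, against 4.50, 4.62 and 5.52 in the wild type, and fell by 4.89 ± 0.65 (adjusted p = 0.000142). Prrxl1, also named Drgx, fell by 4.16 ± 0.29 and Lmx1b by 4.47 ± 0.49. Pou4f1, of dI1 to dI3 and dI5 neurons, read -0.11, 0.59 and 0.16 in the Olig2 line, against 4.23, 3.48 and 4.94 in the wild type. Gbx1 fell by 2.76 ± 0.52, although wild-type replicate 2 read only 0.86. Thus members of both inhibitory and excitatory classes were lower, and 8 of the 17 were not called, of which 7 lay between -0.01 and 0.16 and Lhx2 was at 1.00 ± 1.14. The count of 9 did not move whichever 1 array was left out, and it was 8 within the second set. Pax8 and Lmx1b have 2 probe sets each, and the other one read 0.04 and 0.00.

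Factors of dorsal progenitors, by contrast, were mostly not called, at 0 higher and 1 lower (6.67%) of 15. Zic1 was the exception, at -1.48, -1.48 and -1.44 in the Olig2 line, against 5.74, 5.06 and 6.81 in the wild type, a difference of -7.34 ± 1.37 (adjusted p = 0.00191; within the second set -7.32, adjusted p = 0.164). Among 15 ventral progenitor and floor plate genes 6 were lower (40%) and 0 higher. Pax6, which ventral progenitors share with some post-mitotic neurons, read -0.40, 1.17 and 0.017 in the Olig2 line, against 3.96, 3.65 and 3.77 in the wild type, a difference of -3.53 ± 0.84 (adjusted p = 0.00885). Irx3, of the progenitors dorsal to the Olig2 domain, fell by 1.79 ± 0.25, and Irx5 by 1.43 ± 0.34. The floor plate genes Lmx1a at -3.70 ± 0.95, Foxa2 at -1.72 ± 0.51 and Corin at -2.11 ± 0.66 were called but not stable: Lmx1a lost its call without wild-type replicate 2 (-2.42, adjusted p = 0.0631), Foxa2 on leaving out each array but wild-type replicate 1 (adjusted p = 0.0727 to 0.121), and Corin on leaving out each of the 6 (adjusted p = 0.0548 to 0.149), and the count lower was 3 without wild-type replicate 2.

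**Figure D4:**
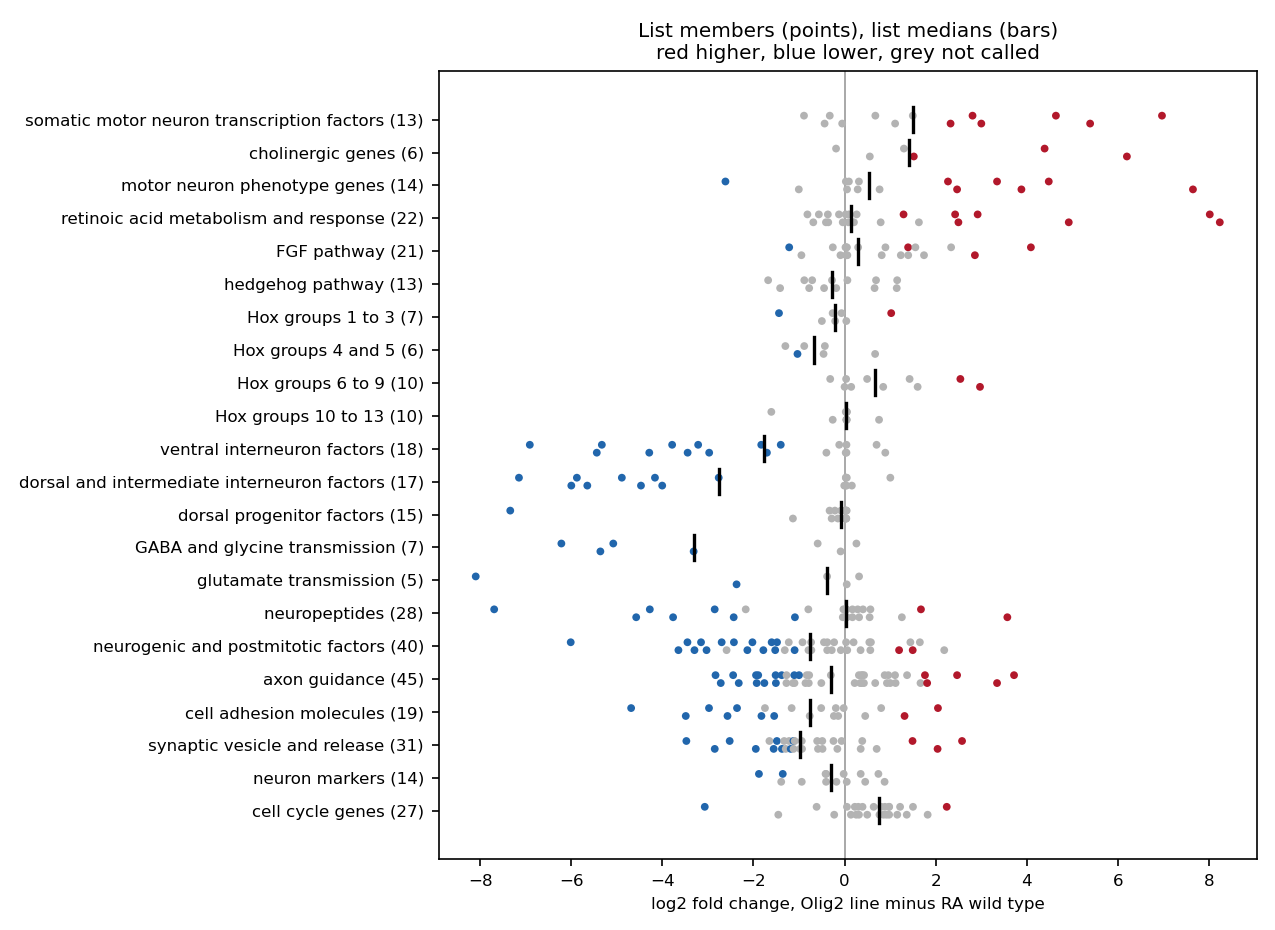
Each point is a gene of the list named at the left (number tested in brackets), placed by its log2 difference (Olig2 line minus RA wild type, x axis), with a black bar at the list median and red, blue and grey for called higher, called lower and not called. Called rises lie in the motor neuron, cholinergic and retinoic acid lists and in several others, among them axon guidance (5), FGF pathway (3) and synaptic vesicle and release (3). The interneuron and GABA and glycine lists are among those with 0 genes called higher.

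Genes of other fast transmitters were lower in the Olig2 line than in the RA wild type. Of 7 genes of GABA and glycine transmission, 0 were higher and 4 lower (57.1%). The 4 were those that make, take up or load these transmitters in neurons. Against the Nkx2.2 line under RA, 0 of the 7 were called in either direction, with a median difference of -0.08. Gad1, which makes GABA, read -2.71, -2.49 and -1.83 in the Olig2 line, against 4.57, 3.47 and 3.58 in the wild type, a difference of -6.22 ± 0.83 (adjusted p = 0.000142). Slc6a5, the neuronal glycine transporter, read between -0.01 and 0.00 in the Olig2 line, against 6.11, 5.23 and 4.73 in the wild type, a difference of -5.36 ± 0.42 (adjusted p = 7.71e-07). Slc32a1, which loads both into vesicles, fell by 5.08 ± 0.69 and Gad2 by 3.31 ± 0.76. The count was 4 whichever 1 array was left out and 3 within the second set.

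Slc17a6, the vesicular glutamate transporter of most excitatory spinal neurons, was among the largest falls, at -7.56, -7.52 and -7.55 in the Olig2 line, against 0.30, 0.23 and 1.13 in the wild type. The 3 Olig2 line arrays were nearly equal and lay below all 18 others, and the difference was -8.10 ± 0.82 (adjusted p = 1.03e-05), with a second probe set at -4.88. Within the second set it was -8.10 (adjusted p = 0.0545). Slc1a2, a glutamate uptake transporter, fell by 2.37 ± 0.43, and the other 3 of 5 glutamate genes were not called, Slc17a7 at 0.047 ± 0.04. Of 11 monoamine genes 1 was lower, Nr4a2, a dopaminergic factor also found elsewhere, at -4.58, -4.64 and -4.34 in the Olig2 line, against 0.88, 1.34 and 0.87 in the wild type. Tph2 at 0.19 ± 1.05 and Th at 0.35 ± 1.03, the synthetic enzymes of serotonin and of dopamine, were not called.

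Neuropeptide genes were more often lower than higher, with 7 lower (25%) and 2 higher (7.14%) of 28. Tac1, the substance P precursor, read -0.50, -0.35 and -0.22 in the Olig2 line, against 6.89, 6.76 and 8.34 in the wild type, a difference of -7.69 ± 0.66 (adjusted p = 1.81e-06), although its other probe set read 0.02. Sst, the somatostatin precursor, fell by 4.57 ± 0.43, Npy fell by 4.28 ± 0.52, and Penk, the enkephalin precursor, by 3.76 ± 0.65. These 4 are peptides of dorsal horn interneurons, among other cells. Vgf, a granule protein precursor, read 2.89, 3.17 and 3.84 in the Olig2 line, against 0.99, -0.92 and -0.88 in the wild type, and rose by 3.57 ± 0.62.

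Among general neuronal genes, neuron markers had few calls and neurogenic factors had many. Of 14 neuron markers 0 were higher and 2 lower (14.3%). Of the 14, 9 were without overlap, a share close to the 61.7% of all genes. Tubb3 at -0.41 ± 0.22, Dcx at -0.18 ± 0.68, Stmn2 at -0.02 ± 0.19 and Snap25 at 0.35 ± 0.49 were not called. Rbfox3, the splicing factor known as NeuN, read 0.062, 0 and 0.40 in the Olig2 line, against 2.24, 1.87 and 1.99 in the wild type, a difference of -1.88 ± 0.42 (adjusted p = 0.00636). Elavl3, at -1.36 ± 0.35, lost its call without Olig2 line replicate 2 or wild-type replicate 1 (adjusted p = 0.0631 and 0.0554). The medium and light neurofilament genes rose, Nefm by 1.86 ± 0.26 and Nefl by 1.13 ± 0.25, while the heavy one, Nefh, was at 0.54 ± 0.49 (adjusted p = 0.556). Against the RA wild type, 2 of 40 neurogenic and post-mitotic transcription factors were higher and 15 lower (37.5%, beside 4.85% of all genes). Against the Nkx2.2 line under RA the list went the other way. There 17 were higher and 2 lower, beside 6.94% and 6.19% of all genes. Neurod6 read -0.16, -0.16 and 0.20 in the Olig2 line, against 6.40, 4.58 and 6.93 in the wild type, and Scrt1 and Scrt2, zinc finger repressors of new neurons, fell by 3.45 ± 0.47 and 3.65 ± 0.49. Bcl11a, of dorsal horn neurons among others, fell by 3.29 ± 0.47, Ebf1 by 3.15 ± 0.60 and Neurod2 by 1.6 ± 0.12, while Nr2f1 rose by 1.20 ± 0.21.

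Surface molecules that steer axons and hold cells together differed from the RA wild type in both directions, with falls in the majority. Axon guidance gave 5 higher and 13 lower of 45. Adhesion molecules gave 2 higher and 7 lower of 19, and cadherins 1 higher and 6 lower of 24. Against the Nkx2.2 line under RA, axon guidance gave 15 higher and 5 lower. Adhesion molecules gave 2 higher and 11 lower against that line, and cadherins 3 higher and 5 lower. Sema3c, a secreted semaphorin, read 3.45, 2.93 and 3.06 in the Olig2 line, against -1.31, -1.03 and 0.63 in the wild type, a difference of 3.72 ± 0.56 (adjusted p = 0.00038). Efnb2, an ephrin, rose by 1.81. Epha4, the ephrin receptor of limb-innervating motor axons, rose by 1.76 ± 0.36. It read 4.33, 3.99 and 3.85 in the Olig2 line, against 2.04, 2.04 and 2.80 in the wild type. Robo3, the receptor of commissural axons before they cross the midline, read -0.15, -0.15 and -0.08 in the Olig2 line, against 2.35, 2.43 and 1.81 in the wild type, and fell by 2.32 ± 0.47. Efnb3, a midline ephrin, fell by 2.83 ± 0.35, Sema5a by 2.72 ± 0.40 and Epha3 by 2.45 ± 0.46.

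Chl1, an adhesion molecule of the L1 family, read -3.53, -3.89 and -3.50 in the Olig2 line, against 1.01, 1.02 and 1.11 in the wild type, a difference of -4.68 ± 0.49 (adjusted p = 1.43e-05). Ntm, a GPI-anchored adhesion molecule, fell by 3.49 ± 0.31 and Ncam2 by 2.98 ± 0.41, whereas Cadm1 rose by 2.05 ± 0.23 and Cntn1 by 1.32 ± 0.30. Among cadherins Cdh6 rose by 1.72 ± 0.34, and Pcdh17 fell by 2.91 ± 0.47, Cdh4 by 2.70 ± 0.37 and Celsr2 by 2.40 ± 0.43. The counts lower fell to 7 without wild-type replicate 1 and 8 without Olig2 line replicate 2 for axon guidance, and to 3 without wild-type replicate 1 or Olig2 line replicate 1 for cadherins, and the count higher for axon guidance was 8 without wild-type replicate 3. Within the second set the counts were smaller, at 2 higher and 2 lower for axon guidance, 1 and 2 for adhesion molecules, and 0 and 0 for cadherins.

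Synaptic vesicle and release genes gave 3 higher (9.68%) and 9 lower (29%) of 31 against the RA wild type. Against the Nkx2.2 line under RA, 7 were higher and 5 lower. Sv2a, a vesicle glycoprotein of most synapses, read -0.99, -0.87 and -0.32 in the Olig2 line, against 2.26, 2.09 and 2.02 in the wild type, a difference of -2.85 ± 0.24 (adjusted p = 1.81e-06), and its relative Sv2b fell by 3.47 ± 0.50. Syt2, a calcium sensor of release at the neuromuscular junction and other fast synapses, read 2.13, 1.5 and 1.06 in the Olig2 line, against 0.51, -0.23 and -0.067 in the wild type, and rose by 1.49 ± 0.25. Doc2b had a larger rise, of 2.58. The active zone genes Rims1 and Pclo fell by 1.95 ± 0.35 and 2.52 ± 0.59. Without Olig2 line replicate 2 the count lower was 5, and without wild-type replicate 3 the count higher was 1. Within the second set the counts were 0 higher and 1 lower, and Sv2a was that one, at -2.44.

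Potassium channels gave 1 higher (3.7%) and 7 lower (25.9%) of 27, and sodium and calcium channels 3 higher (13.6%) and 6 lower (27.3%) of 22. Kcnk2, a leak channel, read -2.32, -2.94 and -1.89 in the Olig2 line, against 0.17, 0.031 and 0.97 in the wild type, and the fast delayed rectifiers Kcnc1 and Kcnc2 fell by 2.01 ± 0.29 and 2.17 ± 0.44. Kcnt2, a sodium-activated channel, rose by 1.73 ± 0.35. Without wild-type replicate 1 the potassium channel count lower was 4. Scn9a, a sodium channel of peripheral neurons, read 0.32, 0.49 and 0.0063 in the Olig2 line, against -2.02, -3.03 and -3.17 in the wild type, a difference of 3.01 ± 0.37 (adjusted p = 6.63e-05). Cacng5, an auxiliary subunit of AMPA receptors, rose by 2.04 ± 0.23, and its relatives Cacng2 and Cacng4 fell by 2.04 ± 0.45 and 2.71 ± 0.49.

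Transmitter receptors gave 6 higher (14%) and 7 lower (16.3%) of 43. Among the rises were nicotinic acetylcholine receptor subunits. Chrnb4 read 2.10, 2.15 and 2.91 in the Olig2 line, against -0.28, -1.62 and -0.24 in the wild type, a difference of 3.10 ± 0.51 (adjusted p = 0.000709), and its neighbours in the genome, Chrna5 and Chrna3, rose by 2.10 ± 0.35 and 1.59 ± 0.38. Chrna4, a further nicotinic subunit, rose by 1.59. P2rx3, a channel opened by ATP, rose by 2.87 ± 0.31. Among the falls were glutamate and GABA receptor subunits: Grm5 read -1.57, -1.86 and -1.90 in the Olig2 line, against 2.80, 2.05 and 3.38 in the wild type, Gria1 fell by 3.29 ± 0.66, Gria3 by 2.25 ± 0.33 and Gabrb2 by 2.82 ± 0.34, and the serotonin receptor Htr2c fell by 2.36 ± 0.39. Grik1, a kainate receptor subunit, went the other way at 1.55 ± 0.38.

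Markers of other cell types were checked because purified neurons can carry other cells. Microglia, endothelium, pluripotent cells and endoderm had 0 genes called in either direction and 0 at an unadjusted p under 0.05. Mesenchyme had 0 higher and 2 lower (33.3%) of 6. Its mean over the 6 genes was -1.01, -1.11 and -0.15 on the Olig2 line arrays and -0.14, 3.34 and 2.69 on the wild-type arrays, so wild-type replicates 2 and 3 were high and replicate 1 was not. Dcn, a connective tissue proteoglycan, read -1.78, -2.10 and -0.95 in the Olig2 line, against 0.34, 3.53 and 3.19 in the wild type, and Col1a2 lost its call without Olig2 line replicate 1 or 2 or wild-type replicate 2 or 3 (adjusted p = 0.0576 to 0.101). The part of such cells in the other results was not tested. Without wild-type replicate 2, as without replicate 3, the counts were 6 higher for motor neuron transcription factors and 9 lower for dorsal interneuron factors. Each of these fits keeps the other array with a high mesenchyme mean, so they cannot test that part. The mesenchyme count itself was 4 without wild-type replicate 1 and 1 when Olig2 line replicate 1 or 2 or wild-type replicate 2 or 3 was left out. Cell cycle genes gave 1 higher and 1 lower of 27 (3.7% each way), with means of 0.54, 0.57 and -0.23 on the Olig2 line arrays and -0.88, 0.40 and -0.19 on the wild-type arrays. Mki67, the common proliferation marker, was at 0.98 ± 0.85 (adjusted p = 0.556). Of 6 astroglial genes 1 was lower, Aldh1l1 (-2.83 ± 0.65), and of 6 oligodendrocyte genes 1 was higher, Cnp (1.79 ± 0.26).

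The 15 largest rises and 15 largest falls held several genes outside these groups. Crp, the gene of C-reactive protein, read 5.72, 5.50 and 5.05 in the Olig2 line, against 0.20, -0.064 and -0.074 in the wild type, and had the smallest adjusted p of the comparison (5.40 ± 0.12, adjusted p = 1.88e-13). A2m, a plasma protease inhibitor, rose by 5.56 ± 0.79, Tfrc, the transferrin receptor, by 5.55 ± 0.78, Ecm1, an extracellular matrix protein, by 5.10 ± 0.27, Clu, the chaperone clusterin, by 5.10 ± 0.57, and the vesicle protein Syt6 by 5.18 ± 0.21, although its 4 probe sets ranged from 0.056 to 5.18. Slc2a3, the neuronal glucose transporter, read 3.25, 3.58 and 2.37 in the Olig2 line, against -3.01, -1.76 and -0.90 in the wild type, and Slc2a1, the other main glucose transporter of brain, rose by 2.97 ± 0.51. Against the Nkx2.2 line, A2m differed by 0.84 ± 0.79 (adjusted p = 0.619) and Slc2a3 by 3.74 ± 0.81 (adjusted p = 0.00338).

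The falls included Mab21l2 and its relative Mab21l1, nuclear proteins of neural and eye development. Mab21l2 read -3.52, -4.05 and -2.38 in the Olig2 line, against 5.06, 4.90 and 4.35 in the wild type, and Mab21l1 fell by 6.95 ± 0.41. Skor1, a corepressor that works with Lbx1 in dorsal interneurons, read -0.13, 1.26 and -0.17 in the Olig2 line, against 7.69, 6.75 and 7.10 in the wild type, while its other probe set was at 0.03. Uncx, a homeobox factor, fell by 6.59 ± 0.58, Lamp5, a lysosome-associated membrane protein of neurons, fell by 6.91 ± 0.66, and Actc1, the cardiac actin, fell by 7.31 ± 0.73. Against the Nkx2.2 line Lamp5 was higher, at 2.04 ± 0.66 (adjusted p = 0.038), as was Skor1, at 1.67 ± 0.52 (adjusted p = 0.0311). Mab21l1 was at 0.081 ± 0.41 (adjusted p = 0.91), Actc1 at -1.81 ± 0.73 (adjusted p = 0.0996), Mab21l2 at -0.044 ± 0.64 (adjusted p = 0.971), Lbx1 at 0.02 ± 0.34 (adjusted p = 0.974), and Uncx at -3.27 ± 0.58 (adjusted p = 0.000782).

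**Figure D5:**
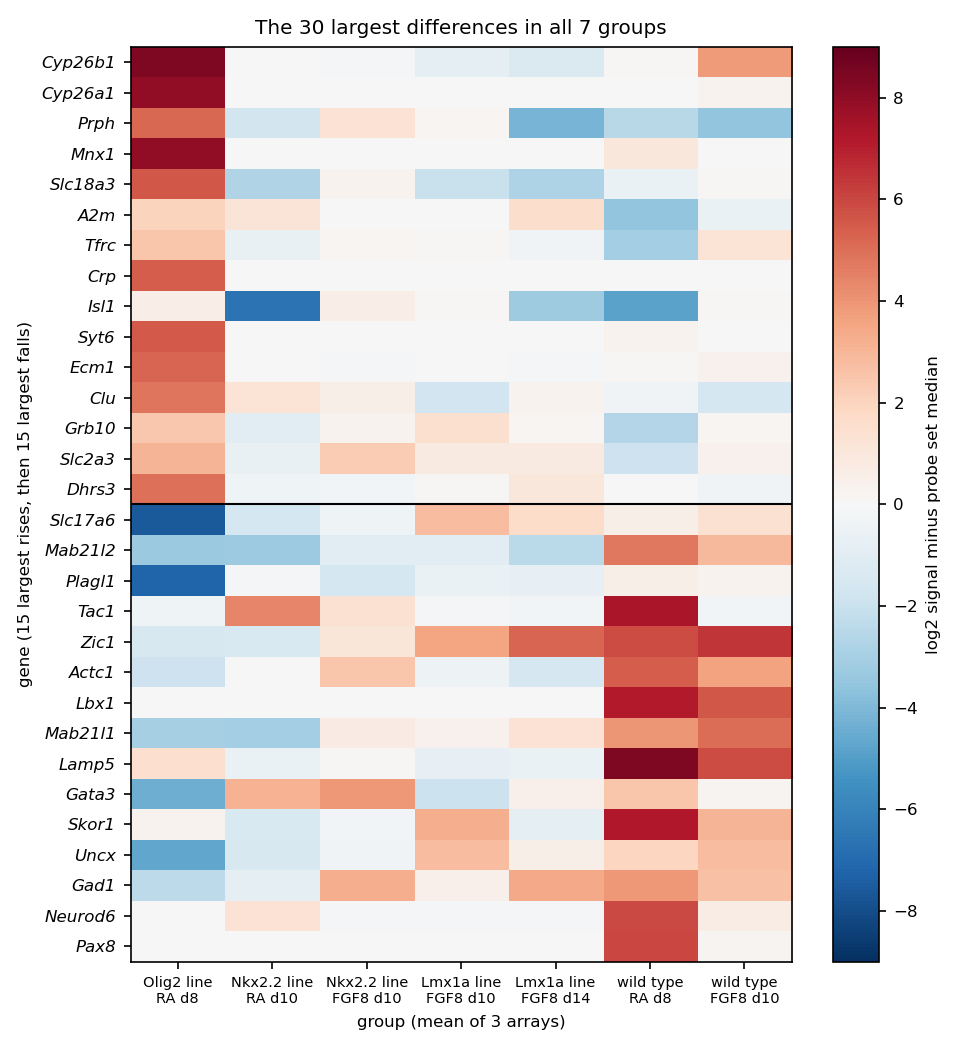
Colour gives the mean centred log2 signal of 3 arrays in each of the 7 groups (columns, Olig2 line first) for the 15 genes with the largest rises and the 15 with the largest falls against the RA wild type (rows). Cyp26a1 and Crp are high in the Olig2 column and within 0.3 of 0 elsewhere, whereas Lbx1 and Lamp5 are high in both wild-type columns.

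Imprinted genes, which are expressed from 1 parental copy and can differ between stem cell lines, supplied 3 of the large differences. Nnat, which encodes the membrane protein neuronatin, read -6.07, -5.02 and -4.76 in the Olig2 line, against 0.31, 0.27 and 0.37 in the wild type. The Olig2 line was below all 18 other arrays, with a difference of -5.60 ± 0.31 from the wild type (adjusted p = 1.24e-08) and -4.71 ± 0.31 from the Nkx2.2 line. Plagl1, a zinc finger factor, read -8.03, -6.96 and -6.69 in the Olig2 line, against -0.24, 1.25 and 0.56 in the wild type, although its 3 probe sets ranged from -7.75 to 0.01. Grb10, an adapter of growth factor receptors, read 3.22, 2.83 and 1.14 in the Olig2 line, against -3.63, -3.68 and -0.62 in the wild type, a difference of 5.04 ± 0.97 (adjusted p = 0.00241). The list of imprinted and sex-linked genes as a whole gave 1 higher (6.25%) and 3 lower (18.8%) of 16. Kdm5d, a Y-linked gene at -3.39 ± 0.94, lost its call whichever 1 of the 6 arrays was left out (adjusted p = 0.0534 to 0.0668).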

How the data were processed

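Biotin-labelled cRNA from 2 ug of total RNA was hybridised to Affymetrix mouse arrays, per the labels' protocols. The authors deposited log2 signals made with GCRMA, per the submitters' processing notes, which name no version here. That each probe set was then centred on a median over 27 arrays follows from the values, of which no more than 13 are positive and 13 negative, and from the exact 0 found in 79.24% of probe sets. Of these arrays 21 are used here. The table holds 45101 probe sets, 64 of them controls. By the platform annotation 34945 have 1 gene symbol, 932 several and 9160 are unnamed here. No filter on low signal is possible on centred values, so none was applied, and each of 18193 genes (9010 with more than 1 probe set) was read from its probe set of highest SD among the 21 arrays.

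limma 3.58.1 in R 4.3.3 (statmod 1.5.0) fitted 1 mean per group over 21 arrays (14 residual and 1.11 prior degrees of freedom), with empirical Bayes moderation and Benjamini-Hochberg adjustment over all genes. A call needs both an adjusted p below 0.05 and a log2 difference of at least 1 in size. Errors after differences are standard errors, based on the spread pooled over all 7 groups. For a gene that is flat in the other groups, the error and p can therefore be smaller than the compared arrays alone would give. Simulated data of this comparison (18193 genes) had independent normal noise with each gene's residual SD. Changes of 1.5, 2 and 3 log2 units were placed only in genes whose residual SD was above the median. Of these, 44%, 66% and 86.3% were recovered, and 2.75% of calls were false. The simulation had few changed genes and no spike-in sets, so these rates describe its own setting and not the calls reported here. Replicate numbers did not pair the arrays: deviations from group means correlated at 0.006 on average over 63 same-numbered pairs and at -0.0034 over 126 others. The 48 lists hold 786 genes, 727 of them tested and the others not analysed here. The members and lists were chosen with earlier results of these data known, so no list count is independent support. Named genes are the 4 marker genes and Olig2, the 15 largest non-overlapping rises and falls, called members of the identity, transmitter, Hox, retinoic acid and hedgehog lists, up to 4 called members each way of other lists, and uncalled list members with their values. The called members Gria3, Epha4, Chrna3, Grik1, Erbb3, Ebf1 and Neurod2 lie outside this rule and were picked with their values in view. Not all genes that the rule names are described here. Precision is limited by the number of arrays. Alternatives were other normalizations, gene summaries, moderation settings, a replicate block, the spike-in set as a term or alone, array weights (fitted gene by gene, added after seeing that the default did not converge) and each array left out.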

Additional observations from a re-analysis of the deposited data

How the results depend on the processing

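Against the RA wild type, 1001 genes were called higher and 883 lower. With only the 6 compared arrays in the fit 636 were called higher, with the mean of all probe sets of a gene 577, within the second spike-in set 227 higher and 262 lower, and at an adjusted p under 0.01 with a difference of 2 or more 208 higher and 240 lower. Leaving out 1 array in turn gave 654 to 1280 higher and 619 to 827 lower, the 654 without wild-type replicate 1. Against the Nkx2.2 line under RA, where 1262 were called higher and 1126 lower, the same spike-in set gave 456 higher and 456 lower, the stricter threshold 350 and 489, and leaving out 1 array 967 to 1478 higher and 950 to 1109 lower. With the replicate number as a block, 984 genes were higher and 876 lower against the wild type, and 1269 and 1129 against the Nkx2.2 line. The other settings kept the counts within 1.5 times. With the spike-in set as a term 711 were higher and 668 lower, and with each array centred on its own median 912 were higher and 912 lower. Plagl1, at 0.007, and Aldh1l1, at 0.026, changed sign where only probe sets without a name suffix were used, since this takes another probe set of the gene. Of 173 genes named by the rule, 102 were not called within the second set, 27 with the set as a term, 29 with only the compared arrays and 15 to 28 without 1 array, 2 under the replicate block, and 0 with array weights, all in the same direction as in the full fit. The cause of the lower counts within the second set was not tested beyond its smaller number of arrays, with 1 array of the Olig2 line.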
